A study of Mus musculus with 19 samples.

Results

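The 35 genes described here make and conjugate bile acids in the hepatocyte, carry them in and out of the cell, or control these steps. They were chosen by gene symbol, and all 35 were found among the 24537 genes counted. By role, 15 belong to synthesis and conjugation, 4 to uptake at the sinusoidal (blood-facing) membrane, 6 to export at the canalicular (bile-facing) membrane, 4 to export back to blood and 5 to regulation. The remaining member, Ephx1, encodes microsomal epoxide hydrolase. Polyadenylated RNA came from hepatocytes of male wild-type (WT) C57BL/6J mice, 1 library per mouse, and how the cells were isolated is not given in the sources used here. The young group held 10 mice of 5 months and the old group 9 mice of 24 months, and the labels name no treatment. Mice were culled on 2 days, with 5 young and 5 old mice on the first and 5 young and 4 old mice on the second.

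Bile acids are made from cholesterol in the liver. In the classical route Cyp7a1 adds the first hydroxyl group to cholesterol, and in the alternative route Cyp27a1 turns cholesterol into an oxysterol on which Cyp7b1 then acts. The products are shortened in peroxisomes, joined to taurine by Baat and pumped into bile by Abcb11, and most return from the intestine by Slc10a1 and the organic anion transporters. Bile acids limit their own synthesis through the receptor FXR (Nr1h4), which induces the repressor SHP (Nr0b2), and through an intestinal hormone, FGF15, which acts on hepatocytes by way of Fgfr4 and its co-receptor Klb.

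Each library held 17381439 to 20287628.5 estimated counts over genes, so a floor of 3 counts corresponds to 0.148 to 0.173 CPM. CPM is a count as parts per 1000000 of its library, scaled by the trimmed mean of M-values (TMM), and values per kilobase also divide by the exon length in the deposited table. The hepatocyte label was checked against 10 hepatocyte markers, whose summed level was 97265 to 163720 CPM in young and 122150 to 205530 CPM in old mice. The low end of the young range was that of mice 1184, 1186 and 1188 described below (97265 to 99813 CPM), and the other 7 young mice held 144870 to 163720 CPM. Alb carried most of that sum and was higher with age over all mice (0.70 on the log2 scale among mice of the first day, 0.22 among those of the second, neither passing alone), as was Apoa1, while 5 of the 10 markers were lower (Tat, Cps1, Ass1, Pck1 and Hnf4a, from -1.10 to -0.30 on the log2 scale in edgeR), and the list's median log2 fold change was -0.22. Markers of other liver cells were present and several were higher with age: 13 of 13 macrophage genes tested, 10 of 11 stellate and 7 of 11 endothelial genes in edgeR. By limma-voom these counts were 2, 10 and 6, and by DESeq2 12, 10 and 7. The summed macrophage level was 101 to 494 CPM in young and 69.6 to 3360 CPM in old mice, the stellate level 38.5 to 106 CPM and 92.8 to 356 CPM, and the endothelial level 176 to 325 CPM and 187 to 605 CPM. Of 9 lymphocyte markers 1 had enough counts to be tested and was called higher. Their sum was 0.316 to 2.59 CPM in young and 2.04 to 31.3 CPM in old mice. None of these macrophage, stellate or endothelial markers was at 0 in every library, and old mouse 1187 held the highest sum of each list. The bile duct markers Krt19, Krt7, Epcam, Cftr and Tff2 reached at most 60, 7, 50, 3 and 1 counts in any library. The other 3 genes of that list were more abundant, with up to 340 counts for Sox9, 2704 for Spp1 and 1428 for Slc10a2, and none of the 3 differed past the threshold with age over all mice. The young mice 1184, 1186 and 1188, all culled on the first day, stood apart in the sum of 19 acute-phase genes, at 47287 to 81292 CPM against 13344 to 16136 CPM in the other 7 young mice and 17919 to 49855 CPM in old mice. Their CPM lay above that of the other 7 young mice for Cyp7b1 and Cyp2c70 and below it for 9 members, namely Cyp8b1, Cyp27a1, Hsd3b7, Akr1c6, Akr1c14, Slc10a1, Abcc3, Klb and Ephx1. These are 6.06% and 27.3% of the members tested, where 9.39% and 11.1% of all genes tested had these 3 mice above or below the other young mice. For the members, results are also given without these mice wherever a call changes, and for genes of the other lists they are not given. In bulk RNA, fewer hepatocytes in a preparation and less RNA per hepatocyte cannot be told apart, and the part of the other-cell markers in the results was not tested.

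Of the 15 synthesis genes 8 fell with age, 7 did not pass and 0 were called higher, and differences between roles were not tested. Of the 33 members with enough counts to be tested, 14 (42.4%) were called, 12 of them lower and 2 higher in old mice (edgeR's quasi-likelihood test with cull day as a covariate, Benjamini-Hochberg adjusted p under 0.05 over 12269 genes). Over all genes tested 30.9% were called, 14.5% lower and 16.3% higher, against 36.4% and 6.06% of the members. The hepatocyte markers, 5 of 10 lower, were called lower about as often as the synthesis genes, 8 of 15, and the part of this in the members' values was not tested. The median log2 fold change was -0.19 over the 33 members and -0.003 over all genes tested. None of the 14 called members changed by as much as 2-fold. The lower calls were 8 of 15 synthesis genes, 1 of 4 uptake genes, 2 of 6 canalicular exporters and 1 of 5 regulators, and the higher calls were 1 exporter to blood and 1 regulator. Without young mice 1184, 1186 and 1188 the counts were 15 lower (45.5%) and 2 higher, with 12.5% and 14.6% of all genes, all 14 calls were shared, and the members' median was -0.34.

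**Figure D1:**
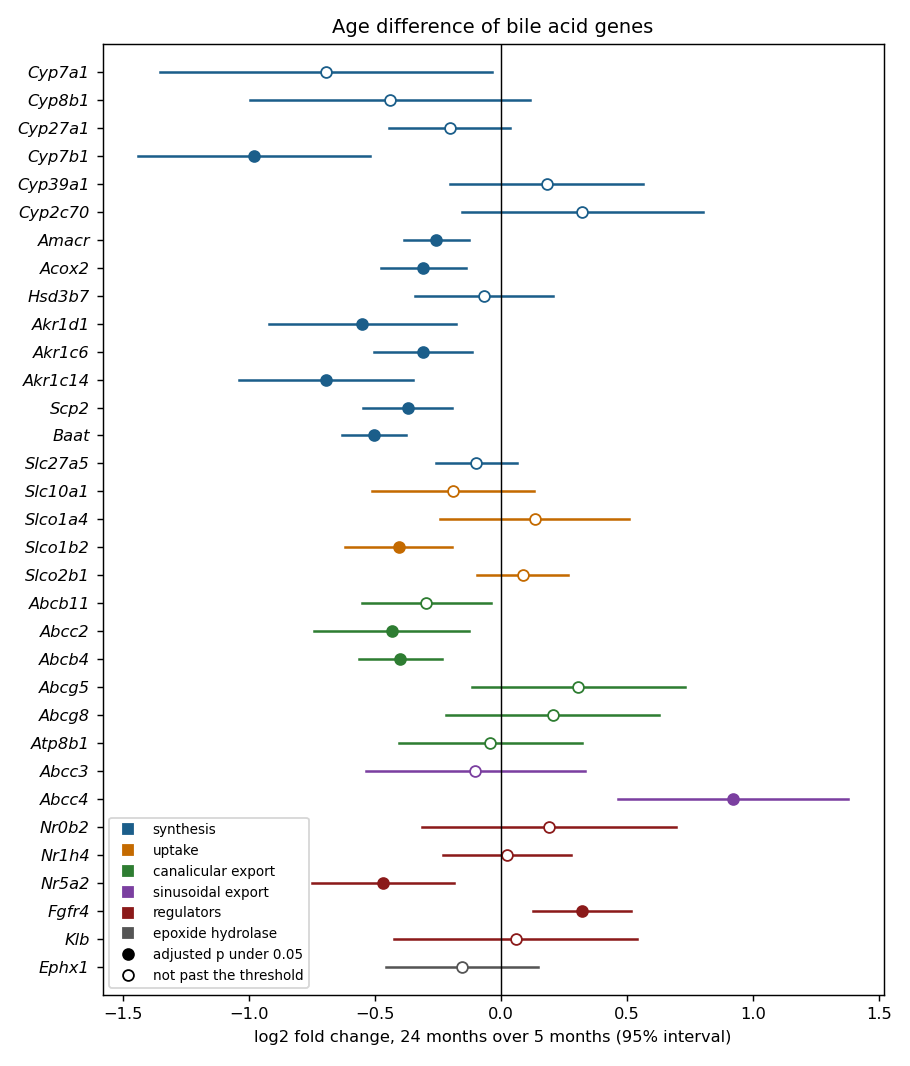
Log2 fold change of 24-month over 5-month mice for the 33 members tested, coloured by role; lines are 95% intervals from the standard error and filled circles passed the adjusted threshold. Of the 15 synthesis genes, 13 lie left of 0 and 8 are filled.

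The promoter windows of 27 members were found in the RefSeq promoter table for GRCm38.p6, and 4 sequences are shown because they hold a half-site of the receptor encoded by Nr5a2, which differed with age, or lie between Abcg5 and Abcg8, which varied together. Nr5a2 encodes LRH-1, a nuclear receptor that binds a half-site as a monomer. The half-site was searched for as CAAGGNCA on both strands, in windows from 250 bases before to 50 bases after each annotated start. It occurred in 4 of 27 member genes (14.8%), namely Nr0b2, Cyp8b1, Akr1c6 and Slc51a, and in 7.64% of 27025 genes with a window. Cyp7a1, Cyp7b1, Cyp39a1, Amacr, Baat, Slc27a5, Atp8b1 and Abcc3 were not searched. Capitals mark the match in these 120-base stretches, which are written 5′ to 3′ on the strand of the gene. The Nr0b2 stretch is chr4:133553126-133553245 on the plus strand, the Cyp8b1 stretch chr9:121916306-121916425 on the minus strand and the Akr1c6 stretch chr13:4434223-4434342 on the plus strand.
Nr0b2: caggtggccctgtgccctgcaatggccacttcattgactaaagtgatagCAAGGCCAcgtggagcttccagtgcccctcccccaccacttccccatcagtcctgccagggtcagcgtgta
Cyp8b1: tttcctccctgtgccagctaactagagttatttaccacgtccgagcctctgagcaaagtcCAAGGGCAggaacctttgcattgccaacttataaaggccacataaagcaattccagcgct
Akr1c6: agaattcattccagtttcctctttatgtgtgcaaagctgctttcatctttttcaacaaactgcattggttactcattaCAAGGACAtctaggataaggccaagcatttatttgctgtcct
The match began 201 bases before the annotated start in Nr0b2, 60 bases before it in Cyp8b1 and 42 bases before it in Akr1c6. Abcg5 and Abcg8, whose products form 1 sterol transporter, start head to head, and the 109 bases between their annotated starts lie at chr17:84683012-84683120, written on the plus strand, which is the strand of Abcg8.
Abcg5-Abcg8: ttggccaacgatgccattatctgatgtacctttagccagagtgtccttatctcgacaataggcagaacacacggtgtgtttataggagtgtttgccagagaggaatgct
The half-site did not occur in these 109 bases.

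Levels per kilobase differed widely among members. Scp2, which encodes a peroxisomal thiolase and a sterol carrier from 1 locus, was highest in young mice at 1754 CPM per kilobase. Akr1c6 (675), the bile acid-CoA ligase Slc27a5 (439), Slc10a1 (340.0) and Slco1b2 (310) followed, all in CPM per kilobase. At the other end stood Abcc4 at 0.248 CPM per kilobase, the only member that passed the filter with under 1 CPM per kilobase. Slc51a and Slc51b, which encode the subunits of the basolateral transporter OSTα-OSTβ, did not pass. Slc51a was deposited with 0.5 counts in 3 of 19 libraries and 0 in the others, all of which round to 0 and stand under the floor of 3 counts, and Slc51b had 0 to 11 counts.

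The first enzymes of the classical and alternative routes, Cyp7a1 and Cyp27a1, did not pass. Cyp7a1 on chromosome 4 (6265612 to 6275631), which encodes the rate-limiting enzyme of the classical route, ranged from 14.3 to 105 CPM in young mice (median 58.3) and from 9.77 to 57.7 CPM in old mice (median 36.5). The ranges overlapped, although 5 of 10 young mice lay above every old mouse. Its log2 fold change was -0.69 (SE 0.310) and did not pass (edgeR adjusted p = 0.0944, 95% interval -1.35 to -0.04 before adjustment). It passed without young mouse 1186 (-0.82, adjusted p = 0.0230), without old mouse 1238 (-0.86, adjusted p = 0.0473), and without mice 1184, 1186 and 1188 together (-0.87, adjusted p = 0.0330). Over 30 alternative fits its adjusted p ran from 0.0230 to 0.397. Transcription of Cyp7a1 is known to follow the daily clock, and 7 of 13 clock genes tested were lower (53.8%) and 1 higher (7.69%) in old mice, against 14.5% and 16.3% of all genes. The clock list summed to 248 to 404 CPM in young and 229 to 327 CPM in old mice. The hour of the cull is not given in the sources used here, and the part of the clock in the Cyp7a1 values was not tested.

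Cyp8b1 on chromosome 9 (121914356 to 121916305) encodes the 12α-hydroxylase that sets the share of cholic acid. It held 205 to 476 CPM in young mice (median 405) and 68.2 to 492 CPM in old mice (median 253). Old mice held both the lowest and the highest value, and the change of -0.44 on the log2 scale did not pass (SE 0.262, edgeR adjusted p = 0.211, 95% interval -0.99 to 0.12). Cyp27a1, the mitochondrial sterol 27-hydroxylase on chromosome 1 (74713535 to 74737897), held 402 to 609 CPM in young mice (median 508) and 302 to 545 CPM in old mice (median 440). Its change of -0.20 on the log2 scale did not pass either (SE 0.113, edgeR adjusted p = 0.178, 95% interval -0.44 to 0.04).

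Cyp7b1, the oxysterol 7α-hydroxylase on chromosome 3 (18071950 to 18243338), had the largest fall among the members over all mice. This rank was lost without mice 1184, 1186 and 1188, where Cyp7a1 (-0.87) and Akr1c14 (-0.80) fell more, and on the second cull day, where Akr1c14 had -0.72. This gene, which is known to be more highly expressed in male than in female mouse liver, held 119 to 414 CPM in young mice (median 196) and 70.0 to 158 CPM in old mice (median 138). Of the young mice, 9 of 10 lay above every old mouse. The level was 1.97-fold lower with age, a log2 fold change of -0.98 in edgeR (SE 0.217, adjusted p = 0.00322). Mice 1184, 1186 and 1188 held the highest young values, at 285 to 414 CPM against 119 to 258 CPM in the other 7 young mice. Without them the log2 fold change was -0.66 and still passed (edgeR adjusted p = 0.0228). With mice of the first day alone it was -1.44 and with those of the second -0.47, where it did not pass (edgeR adjusted p = 0.120).

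**Figure D2:**
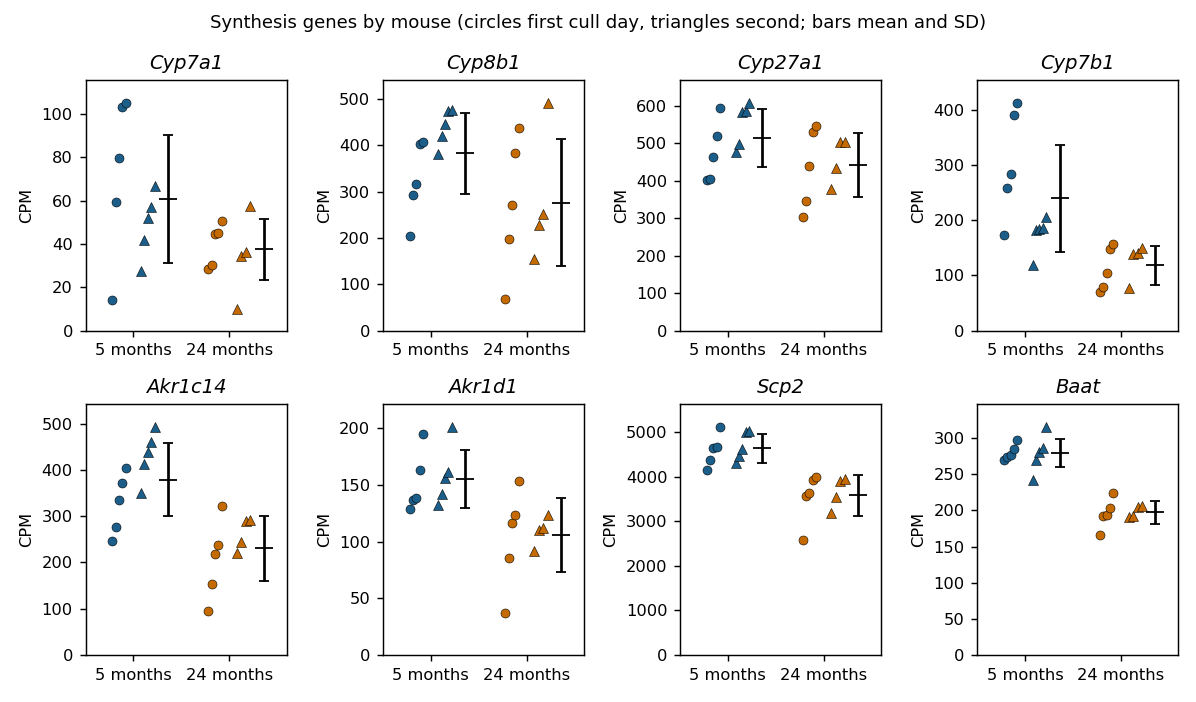
CPM of 8 synthesis genes in each of 10 young and 9 old mice, with circles for the first cull day, triangles for the second, and bars for the mean and SD of each age. The ages do not overlap for Scp2 and Baat and overlap for the other 6 genes.

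Baat and Scp2 showed the clearest separation of the ages. Baat on chromosome 4 (49489418 to 49506558), the enzyme that joins bile acids to taurine, held 242 to 316 CPM in young mice (median 279) and 166 to 224 CPM in old mice (median 194). Every old mouse lay below every young mouse. Its log2 fold change was -0.50 (SE 0.0603, edgeR adjusted p = 3.72e-05), the smallest adjusted p of any member, and the change was -0.52 among mice of the first day and -0.49 among those of the second. Scp2 on chromosome 4 (108043830 to 108118547) held 4146 to 5123 CPM in young mice (median 4637) and 2585 to 3994 CPM in old mice (median 3628), again with no overlap. It fell by 0.37 on the log2 scale (SE 0.0832, edgeR adjusted p = 0.00359). Baat and Scp2 were the members with no overlap between ages, and among all genes tested 0.725% had every old mouse below every young mouse and 0.994% every old mouse above.

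The peroxisomal side-chain enzymes moved the same way as Scp2. Acox2, the branched-chain acyl-CoA oxidase on chromosome 14 (8225511 to 8259019), held 165 to 221 CPM in young and 130 to 196 CPM in old mice. It fell by 0.31 on the log2 scale (SE 0.0795, edgeR adjusted p = 0.00807). Amacr, the racemase on chromosome 15 (10981756 to 10996624) that turns the side chain to the form Acox2 can use, held 118 to 163 CPM in young and 95.2 to 127 CPM in old mice. It fell by 0.26 on the log2 scale (SE 0.0601, edgeR adjusted p = 0.00473). For both genes the ranges overlapped, with 5 of 9 old mice below every young mouse for Acox2 and 4 of 9 for Amacr.

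The aldo-keto reductases that reduce the steroid ring also fell. Akr1c14, a 3α-hydroxysteroid dehydrogenase on chromosome 13 (4059591 to 4090422), held 247 to 493 CPM in young mice (median 388) and 95.7 to 323 CPM in old mice (median 237). It was 1.62-fold lower with age, or -0.69 on the log2 scale (SE 0.163, edgeR adjusted p = 0.00469). Akr1d1, the 5β-reductase on chromosome 6 (37530173 to 37568815), held 128 to 201 CPM in young mice and 37.3 to 154 CPM in old mice, where 8 of 9 lay below every young mouse. It fell by 0.55 on the log2 scale (SE 0.176, edgeR adjusted p = 0.0243), and did not pass without young mouse 1180 (-0.48, edgeR adjusted p = 0.0544; 0.00844 to 0.260 over 30 alternative fits). Akr1c6 on chromosome 13 (4434343 to 4457530), a reductase of ketosteroids, held 720 to 1089 CPM in young and 548 to 938 CPM in old mice and fell by 0.31 (SE 0.0918, edgeR adjusted p = 0.0167). Akr1c6 and Akr1c14 belong to a cluster of similar genes, so the division of reads between them and their relatives is uncertain.

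Besides Cyp7a1, Cyp8b1 and Cyp27a1, 4 synthesis genes did not pass, which are named here after their values were seen. Their log2 fold changes ran from -0.10 for Slc27a5, over -0.07 for Hsd3b7 and 0.18 for Cyp39a1, to 0.32 for Cyp2c70. Cyp2c70, the enzyme that makes muricholic acids in mice, was one of the 2 synthesis genes with a positive value, and old mouse 1189 held 1880 CPM of it where the others of its age held 388 to 645 CPM. Without that mouse the log2 fold change of Cyp2c70 was 0.03. Without mice 1184, 1186 and 1188 that of Cyp2c70 was 0.44, that of Hsd3b7 -0.21 and that of Cyp39a1 0.05, and none passed. Mouse 1189 also held the lowest values of Cyp8b1 (68.2 CPM), Akr1d1 (37.3 CPM) and Akr1c14 (95.7 CPM) of any library.

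Of the 4 uptake genes 1 was called, a share (25%) near the 30.9% of all genes. Slco1b2, an organic anion transporter of the sinusoidal membrane on chromosome 6 (141629518 to 141686635), held 825 to 1224 CPM in young mice (median 1020) and 529 to 929 CPM in old mice (median 783). It fell by 0.41 on the log2 scale (SE 0.0994, edgeR adjusted p = 0.00599), with 5 of 9 old mice below every young mouse. Slc10a1 (NTCP), the sodium-dependent carrier of conjugated bile acids on chromosome 12 (80953185 to 80968079), held 412 to 811 CPM in young mice (median 519) and 351 to 702 CPM in old mice (median 490). The ages overlapped over most of their range, and the change of -0.19 on the log2 scale did not pass (SE 0.152, edgeR adjusted p = 0.361, 95% interval -0.51 to 0.13). It was -0.38 without mice 1184, 1186 and 1188 (edgeR adjusted p = 0.0647) and -0.11 without young mouse 1182. The log2 fold changes of Slco1a4 and Slco2b1 were 0.13 and 0.09, and neither passed. Without mice 1184, 1186 and 1188 that of Slco1a4 turned to -0.08 and that of Slco2b1 was 0.04.

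Of the 6 canalicular exporters 2 were called, a share (33.3%) near the 30.9% of all genes. Both were called lower, as were 14.5% of all genes. Abcb4, the phosphatidylcholine floppase on chromosome 5 (8893721 to 8959226), held 191 to 256 CPM in young mice (median 229) and 148 to 218 CPM in old mice (median 173), with 7 of 9 old mice below every young mouse. It fell by 0.40 on the log2 scale (SE 0.0780, edgeR adjusted p = 0.00144). With mice of the first day alone the value was -0.24 and did not pass (edgeR adjusted p = 0.160). With those of the second it was -0.57 (edgeR adjusted p = 0.00273). Abcc2 (MRP2) on chromosome 19 (43782308 to 43838218), which exports glucuronides and other conjugates, held 216 to 511 CPM in young mice (median 269) and 152 to 335 CPM in old mice (median 198). Its log2 fold change was -0.43 (SE 0.145, edgeR adjusted p = 0.0300). That call was lost when any of 4 mice was left out: young mouse 1180, which held 511 CPM (-0.32, adjusted p = 0.0700), young mouse 1237 (adjusted p = 0.0514), old mouse 1236 (adjusted p = 0.0568) or old mouse 1242 (adjusted p = 0.0538). It was also lost without the cull day term (adjusted p = 0.0795), and over 30 alternative fits the adjusted p ran from 0.0116 to 0.302.

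Abcb11, the bile salt export pump on chromosome 2 (69238282 to 69342616), held 636 to 1054 CPM in young mice (median 731) and 411 to 783 CPM in old mice (median 637). Its change of -0.30 on the log2 scale did not pass (SE 0.121, edgeR adjusted p = 0.0689, 95% interval -0.55 to -0.04 before adjustment). It passed in DESeq2 (adjusted p = 0.0409) and in edgeR without old mouse 1181 (adjusted p = 0.0487) or old mouse 1185 (adjusted p = 0.0397), within a range of 0.0397 to 0.328 over 30 alternative fits. The log2 fold changes of the sterol transporter genes Abcg5 and Abcg8 were 0.31 and 0.21, and that of the phospholipid flippase Atp8b1 was -0.04, or -0.20 without old mouse 1189. None of these 3 passed, and without mice 1184, 1186 and 1188 the values of Abcg5 and Abcg8 were 0.13 and 0.01.

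**Figure D3:**
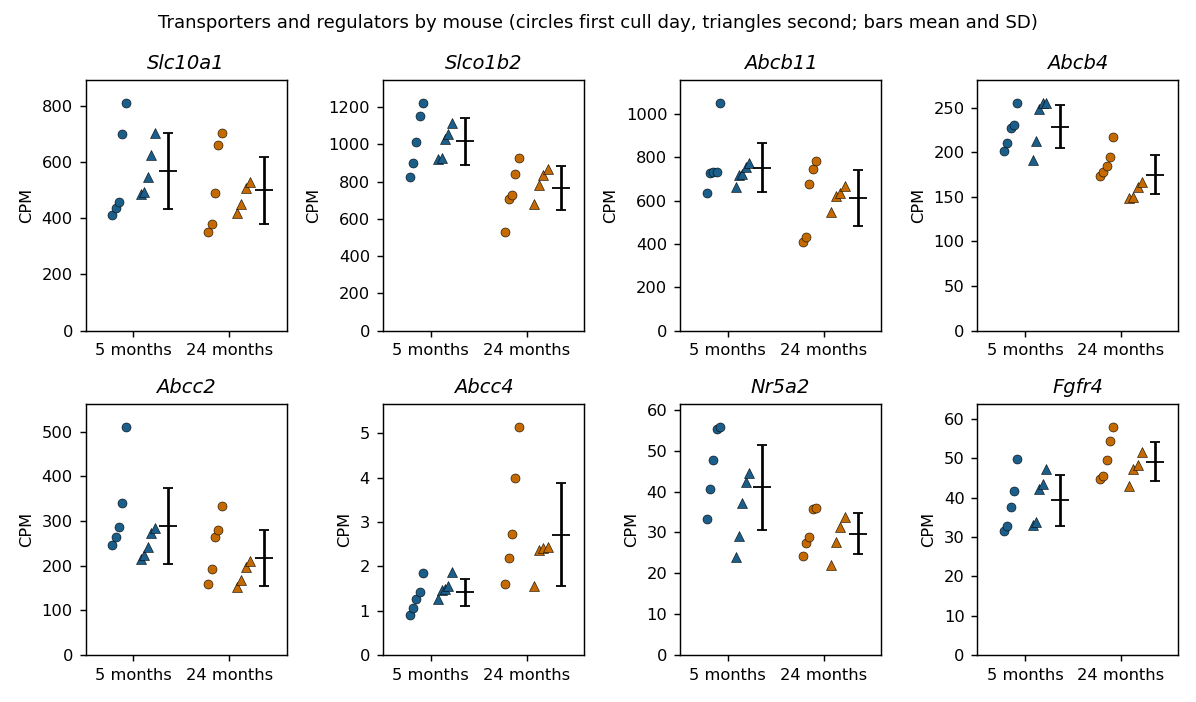
CPM of 6 transporter genes and 2 regulator genes in each of 10 young and 9 old mice, with circles for the first cull day, triangles for the second, and bars for the mean and SD of each age. Abcc4 and Fgfr4 were higher in old mice, with 7 of 9 and 3 of 9 old mice above every young mouse.

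Export to blood gave the largest rise among the members, at a very low level. Abcc4 (MRP4), a sinusoidal pump on chromosome 14 (118482692 to 118706219), held 0.892 to 1.87 CPM in young mice (median 1.44) and 1.55 to 5.15 CPM in old mice (median 2.41). In old mice 7 of 9 lay above every young mouse. It rose by 0.92 on the log2 scale (SE 0.216, edgeR adjusted p = 0.00459). It passed on neither cull day alone, with 1.27 on the first (edgeR adjusted p = 0.0585) and 0.52 on the second (edgeR adjusted p = 0.0890). Counts were low, with 16 in the lowest and 118 in the highest of the 19 libraries. Old mouse 1187, which also held the highest macrophage, stellate and endothelial sums, held the highest value (5.15 CPM), and without it the log2 fold change was 0.76 and still passed. Abcc3 (MRP3) held 116 to 332 CPM in young and 150 to 357 CPM in old mice and did not pass (log2 fold change -0.10, edgeR adjusted p = 0.733). Mice 1184, 1186 and 1188 held 116 to 150 CPM of Abcc3 against 182 to 332 CPM in the other 7 young mice, and without them it passed (-0.46, edgeR adjusted p = 0.0174). Ephx1 changed in the same way, from -0.15 (edgeR adjusted p = 0.431) to -0.38 (edgeR adjusted p = 0.0393). On the second cull day alone both passed as lower, Abcc3 with -0.53 (edgeR adjusted p = 0.00633) and Ephx1 with -0.56 (edgeR adjusted p = 0.00816), while on the first their values were 0.28 and 0.21. Abcc3 and Ephx1 were singled out after their values were seen.

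Of the 5 regulators 1 was called lower and 1 higher (20% each), near the 14.5% and 16.3% of all genes. Nr5a2 (LRH-1), an activator of bile acid genes on chromosome 1 (136843584 to 136960448), held 23.9 to 55.8 CPM in young mice (median 41.5) and 22.1 to 36.0 CPM in old mice (median 28.9). It fell by 0.47 on the log2 scale (SE 0.133, edgeR adjusted p = 0.0138), and 7 of 10 young mice lay above every old mouse. Of the 4 genes with the LRH-1 half-site in their window, Akr1c6 fell, Cyp8b1 and Nr0b2 did not pass and Slc51a was not tested. Fgfr4, the hepatocyte receptor for FGF15 on chromosome 13 (55152818 to 55168759), held 31.6 to 49.9 CPM in young mice (median 39.6) and 42.9 to 57.9 CPM in old mice (median 48.3). It rose by 0.32 on the log2 scale (SE 0.0916, edgeR adjusted p = 0.0138), although the ranges overlapped. Its co-receptor gene Klb, on chromosome 5 (65348411 to 65384003), held 18.3 to 60.1 CPM in young and 22.5 to 61.3 CPM in old mice. Klb did not pass (log2 fold change 0.06, SE 0.227, edgeR adjusted p = 0.865, 95% interval -0.42 to 0.54). The direction of Klb held in 22 of 30 alternative fits, among them 14 of 19 with 1 mouse left out. It turned to -0.25 without mice 1184, 1186 and 1188.

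The bile acid receptor and its main target did not pass. Nr1h4 (FXR) on chromosome 10 (89454234 to 89506658) held 67.8 to 153 CPM in young mice (median 113) and 84.7 to 120 CPM in old mice (median 111), and its log2 fold change was 0.02 (SE 0.119, edgeR adjusted p = 0.893, 95% interval -0.23 to 0.28). Its direction held in 21 of 30 alternative fits and turned to -0.10 without mice 1184, 1186 and 1188. Nr0b2 (SHP) on chromosome 4 (133553376 to 133556686) held 13.5 to 69.1 CPM in young mice (median 30.6) and 24.9 to 54.4 CPM in old mice (median 37.5). Its log2 fold change was 0.19 (SE 0.238, edgeR adjusted p = 0.566, 95% interval -0.31 to 0.70), and it was 0.02 without those 3 mice. With 1 mouse left out at a time it ran from 0.10 to 0.33. The young mice of both genes spanned the whole range of the old mice.

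Each cull day was also taken alone, since both ages were present on both. Of the 33 members tested, 28 had the same sign on both days, among them all 14 called members. The 14 were called on the same mice pooled, which favours equal signs, so this is no independent support. On the first day alone 2 of 33 members passed (6.06%), Cyp7b1 and Baat, and on the second 10 did (30.3%), against 3.67% and 19.3% of all genes. The 10 were 8 of the 14, Abcc3 and Ephx1. At an unadjusted p under 0.05 the first day gave 9 members lower (27.3%) and 2 higher (6.06%), against 12.5% and 14.1% of all genes. The second gave 16 lower (48.5%) and 1 higher (3.03%), against 14.5% and 17.7%. The interaction of age and cull day passed for 0 of 33 members and 0 of 12269 genes in edgeR. At an unadjusted p under 0.05 it counted 4 members (12.1%), namely Cyp7b1, Abcb4, Abcc3 and Ephx1, against 6.51% of all genes. The smallest adjusted p among members was 0.639.

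**Figure D4:**
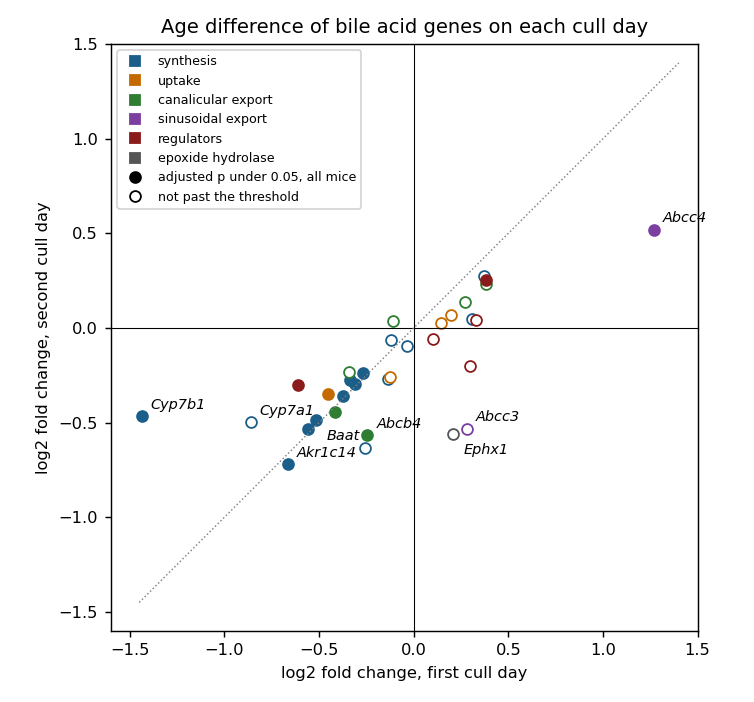
Log2 fold change of old over young mice with the first cull day on the horizontal axis and the second on the vertical axis for the 33 members tested, coloured by role, with filled circles for members that passed over all mice. The dotted line marks equal values; all 14 filled circles lie at the lower left or upper right of the origin, and Abcc3 and Ephx1 lie at 0.28 and 0.21 on the first day and at -0.53 and -0.56 on the second.

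The cull day term itself passed for 4 of 33 members (12.1%), close to the 12.3% of all genes. On the second day Amacr was higher by 0.19 and Akr1c6 by 0.32 on the log2 scale, while Cyp2c70 had a value of -0.70 and Atp8b1 of -0.53. Over all genes 5.72% were higher and 6.55% lower on the second day. Without mice 1184, 1186 and 1188, all from the first day, 0 members and 0 of 12354 genes passed in edgeR, and 7 members (21.2%) had an unadjusted p under 0.05, near the 20% of all genes.

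Relations across mice were computed for 3 pairs of members on log2 CPM, over all mice, within each age and within each cull day, 15 relations in all. Abcg5 and Abcg8, which share the 109-base stretch shown above, varied together. Over 19 mice Pearson's r was 0.895 (permutation p = 1e-05, the smallest the resamples can give, adjusted p = 0.00015) and Spearman's coefficient was 0.881 (permutation p = 1e-05). Without the 2 mice farthest from the median of Abcg5, r was 0.849. It was 0.867 within young mice (permutation p = 0.00121) and 0.906 within old mice (exact permutation p = 0.000965). Within cull days r was 0.937 for the first (permutation p = 0.00011) and 0.909 for the second (exact permutation p = 0.0018). Spearman's coefficient was 0.842 in young mice (permutation p = 0.00376) and 0.800 in old mice (exact permutation p = 0.0138). By cull day Spearman's coefficient was 0.952 for the first (permutation p = 0.00017) and 0.717 for the second (exact permutation p = 0.0369), the latter with an adjusted p of 0.0790. These points share library scaling, and counts were made without a stated strand setting.

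**Figure D5:**
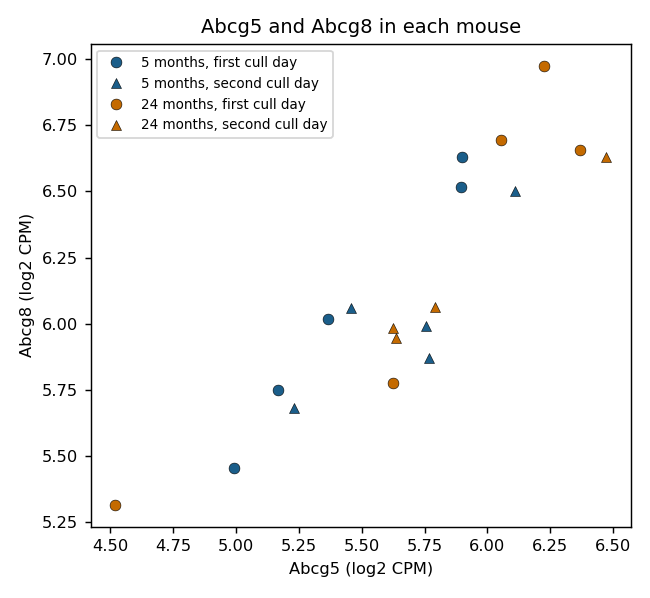
Log2 CPM of Abcg5 (horizontal axis) and Abcg8 (vertical axis) in 19 mice, coloured by age with the cull day by shape. Mice of both ages and both days fall along 1 band, from old mouse 1189 at the lower left (22.8 CPM of Abcg5 and 39.7 CPM of Abcg8) to old mice at the upper right.

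No relation between Cyp7a1 and its repressor Nr0b2 passed. Over 19 mice r was 0.130 (permutation p = 0.591, adjusted p = 0.654) and Spearman's coefficient 0.123 (permutation p = 0.615), and r was 0.315 without the 2 mice farthest from the median. Within young mice r was 0.431 (permutation p = 0.217) and within old mice -0.195 (exact permutation p = 0.610). Without the 2 farthest mice of each age these became -0.027 (without 1186 and 1235) and 0.815 (without 1236 and 1238), so both rest on those mice. On the cull days r was 0.294 (permutation p = 0.410) and 0.0718 (exact permutation p = 0.845), or 0.150 and 0.565 without the 2 farthest mice of each day. For Cyp7a1 and Cyp8b1 r was 0.438 (permutation p = 0.0640, adjusted p = 0.160) and Spearman's coefficient 0.514 (permutation p = 0.0256, adjusted p = 0.0640), with r = 0.418 without the farthest pair. It was 0.559 in young mice (permutation p = 0.0972) and -0.225 there without mice 1186 and 1235, so the value in young mice rests on those mice. In old mice r was 0.252 (exact permutation p = 0.465). By cull day r was 0.467 for the first (permutation p = 0.178) and 0.613 for the second (exact permutation p = 0.0764). Spearman's coefficient on the second day was 0.900 (exact permutation p = 0.00203, adjusted p = 0.0101). The second day held mice of both ages, and the part of age in this value was not tested. The coefficient was 0.164 in young mice (permutation p = 0.655) and 0.467 in old mice (exact permutation p = 0.213). On the first day it was 0.455 (permutation p = 0.192).

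A further list of 40 genes of bile acid and sterol handling outside the members gave 37 genes tested, of which 10 were lower and 3 higher in old mice, 27.0% and 8.11%, against 14.5% and 16.3% of all genes. The median log2 fold change was -0.17. The larger falls were those of Slc22a7, an organic anion transporter (-0.92, SE 0.153, edgeR adjusted p = 0.000404), and of Sult2a8, a bile acid sulfotransferase (-0.72, edgeR adjusted p = 0.00215). Ppara, the fatty acid receptor, fell by 0.46, and Hsd17b4, the peroxisomal enzyme that follows Acox2, fell by 0.36. Cyp46a1, a cholesterol 24-hydroxylase, was 2.82-fold higher in edgeR (SE 0.395 on the log2 scale, adjusted p = 0.00921). It averaged 2.05 ± 1.27 CPM (SD, n = 10) in the young and 5.28 ± 2.65 CPM (SD, n = 9) in the old. Pltp, which transfers phospholipid between lipoproteins, rose by 1.04, and Soat2, which esterifies cholesterol, by 0.54. On the first and second cull day Pltp had 1.59 and 0.42 and Soat2 0.75 and 0.31, and neither gene passed on a single day. Cyp46a1 had 2.12 on the first day, where it did not pass, and 0.86 on the second, where it did (edgeR adjusted p = 0.0186). Slco1a1, a sinusoidal organic anion transporter, averaged 563 ± 139 CPM (SD, n = 10) in the young and 371 ± 147 CPM (SD, n = 9) in the old, and did not pass (log2 fold change -0.58, edgeR adjusted p = 0.0644).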

How the data were processed

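Estimated counts per gene for 19 libraries were deposited as a single table. Per the file headers, the authors made it with HOMER's analyzeRepeats.pl on mm10, counting exons and condensing transcripts to genes without normalization, and the submitters' processing notes name STAR and HOMER. Versions, strand setting and the handling of reads with several matches are not given in the sources used here. Values were multiples of 0.5 (29.2% not whole) and were rounded to whole counts. Column names matched the labels' library numbers, which also name the mice. The totals in the column names exceeded the sums over genes, which held 78.3% to 86.5% of them.

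Old and young mice were compared with edgeR 4.0.16 in R 4.3.3 (quasi-likelihood test, TMM scaling, filterByExpr with a minimum count of 10, cull day as covariate), with Benjamini-Hochberg adjustment over all genes tested. Standard errors were derived from the fold change and its F statistic, and 95% intervals used 16 degrees of freedom. DESeq2 1.42.0, limma-voom (limma 3.58.1), other scaling and filters, single cull days and left-out mice were alternatives, and leaving out mice 1184, 1186, 1188 and 1187 together was added after seeing the data. Correlations used log2 CPM with a prior count of 2 and 100000 permutations, or all of them for 9 mice. The fits were tested on simulated data. Described with values were all members past the threshold and 10 members fixed by name, and of the wider list Slco1a1 and up to 4 significant rises and 4 significant falls by size with a mean of at least 1 CPM. The members and lists were chosen with earlier results of these data known. Gene positions come from the deposited table and are 1-based on mm10 (GRCm38). Sequences are from RefSeq on GRCm38.p6.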

Additional observations from a re-analysis of the deposited data

Results flagged for a closer look

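The highest or lowest mouse of an age was set apart from the others for 6 of 66 groups (33 members in 2 ages), by a gap that took more of the group's range than Dixon's 95% critical value. Chance flags about 1 in 20 groups, 5% of them. In all 6 it was the highest mouse that stood apart. Old mouse 1189 held 1880 CPM of Cyp2c70 where the rest of the old group held 388 to 645 CPM, and 91.7 CPM of Atp8b1 against 27.5 to 48.0 CPM. Old mouse 1181 held 59.1 CPM of Slco1a4 against 18.6 to 37.7 CPM, and 357 CPM of Abcc3 against 150 to 237 CPM. Young mouse 1180 held 1050 CPM of Abcb11 against 636 to 775 CPM in the other young mice, and 511 CPM of Abcc2 against 216 to 340 CPM.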

How the results depend on the processing

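All 14 called members kept their direction in all 420 fits made for them over 30 alternatives, and of 660 fits for the 22 members described by rule, 24 lost and 7 gained a call and 0 reversed a called direction. The 14 were called in the main fit, and the alternatives reuse its mice. A kept direction was therefore likely in advance and is no independent support. The first cull day alone gave 450 genes called over the whole table, 2 members lower and 0 higher (9 and 2 at an unadjusted p under 0.05 in edgeR, 27.3% and 6.06%, against 12.5% and 14.1% of all genes). The second alone gave 2388 genes and 0 members higher (1 at an unadjusted p under 0.05, 3.03% against 17.7%) beside 10 lower. These fits hold fewer mice. Leaving out 1 mouse at a time gave 3014 to 3949 genes, with the lowest count without old mouse 1187, 10 to 13 members lower and 2 higher each time. The 4 members called by cull day became 0 without mice 1184, 1186 and 1188. Scaling by library totals called the same 14 members, with 64.2% of all calls higher in old mice against 53.0%. No paired analysis was possible because the library numbers are not shared between ages. Abcc4 reached at most 118 counts, which limits the precision of its change.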

Other observations

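Slc10a2, the sodium-dependent bile acid carrier best known from the ileum and bile ducts, was outside the members and was singled out after its values were seen. Its mean was 48.4 ± 16.3 CPM (SD, n = 10) in the young and 54.2 ± 11.4 CPM (SD, n = 9) in the old, a difference of 0.16 on the log2 scale that did not pass (SE 0.185, edgeR adjusted p = 0.530). In the bile duct list, Krt19, Epcam, Krt7 and Cftr had their highest counts in young mouse 1239 (60, 50, 7 and 3), and Sox9 and Spp1 in young mouse 1186 (340 and 2704). The median of Krt19 was under the floor of 3 counts in both ages. The median CPM was 4.90 in the young and 8.41 in the old for Sox9, and 3.05 and 6.69 for Spp1. The fit did not follow the medians throughout. For the 3 genes of this list tested, the log2 fold changes ran from -0.34 to 0.32, with 1 negative. Neither Sox9 nor Spp1 passed by age in edgeR over all mice, and on the second cull day alone Sox9 passed as higher in the old (0.80 on the log2 scale, edgeR adjusted p = 0.0253). The ileal genes Fabp6 and Fgf15 had 0 counts in every library.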
